A study of Mus musculus with 3 samples.

Results

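The sites described here are Foxp3 CUT&RUN peaks that lay inside protein-coding genes, away from their ends, and were recovered in both replicates. They were chosen from the deposited peak lists. A peak of replicate 1 and a peak of replicate 2 had to overlap by at least 50% of both lengths on chromosomes 1 to 19 or X. The replicate 2 summit, the base with the most fragments, had to fall inside a protein-coding gene and more than 1000 bp from every end of such a gene. Of 31111 shared sites on these chromosomes, 10951 met the rule (35.2%, 95% exact binomial interval 34.7 to 35.7%). Positions that meet the same rule made up 37.5% of the sequence of these chromosomes. A further 8626 lay within 1000 bp of a gene end and 11534 lay between genes. Because both lists chose the members, their strength and their sharing are given as descriptions, and no test was run. Intervals for shares cover counting error only.

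The cells were mouse bone marrow-derived macrophages, which are macrophages grown out of marrow precursors in medium containing M-CSF. They were fixed in 0.1% formaldehyde for 2 min, and the DNA was cut free beside a bound Foxp3 antibody (clone FJK-16s). Both Foxp3 libraries belong to a single group, replicates 1 and 2, and the series also has 1 isotype IgG library, whose values were not analysed here. Genotype, strain, sex and age are not given in the sources used here. The series title speaks of stimulation with damage-associated molecules from brain, but the labels assign it to no library. Whether the replicates were separate cultures is likewise not stated, so differences between them may be technical. Binding data measure no expression, so the cell type could not be checked against its markers. Replicate 1 held 556535 peaks from 33294105 fragments and replicate 2 held 95135 peaks from 34898401 fragments. Whether a site is exonic or intronic was not determined here.

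Foxp3 is a forkhead transcription factor, known mainly as the regulator that defines regulatory T cells, where it acts with partners such as NFAT and Runx proteins. Transcription factor sites inside genes can be enhancers within introns, or promoters of shorter transcripts that start inside a longer gene. Many mammalian promoters lie in stretches rich in CG dinucleotides (CpG islands), which stay mostly unmethylated and open. A peak at such a place is therefore both inside a gene body, by its outermost ends, and at a start.

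Annotated starts inside gene bodies carried sites far more often where the sequence was rich in CG. The 4 windows of 300 bases from RefSeq (GRCm38.p6, the coordinates of mm10), each from 250 bases before to 50 after an internal start, show the contrast below. They are written on the strand of the gene, 5′ to 3′, with every CG in capitals. The first 3 each overlapped the replicate 2 peak of a shared site and the last did not. At Tyro3 the replicate 1 peak of the same site began just past the window. Tank encodes an adaptor of TRAF signalling, Tyro3 a receptor for engulfment of dying cells, Jmjd1c a jumonji-domain chromatin protein, and Cybb the catalytic subunit of the phagocyte NADPH oxidase.
Tank (chr2:61592902-61593201, plus strand): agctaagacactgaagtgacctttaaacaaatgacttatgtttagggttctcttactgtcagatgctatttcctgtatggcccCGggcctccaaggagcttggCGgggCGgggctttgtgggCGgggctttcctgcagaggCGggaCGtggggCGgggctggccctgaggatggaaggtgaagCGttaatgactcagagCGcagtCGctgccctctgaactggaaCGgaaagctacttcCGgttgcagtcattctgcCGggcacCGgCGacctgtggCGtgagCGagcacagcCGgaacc
Tyro3 (chr2:119799264-119799563, plus strand): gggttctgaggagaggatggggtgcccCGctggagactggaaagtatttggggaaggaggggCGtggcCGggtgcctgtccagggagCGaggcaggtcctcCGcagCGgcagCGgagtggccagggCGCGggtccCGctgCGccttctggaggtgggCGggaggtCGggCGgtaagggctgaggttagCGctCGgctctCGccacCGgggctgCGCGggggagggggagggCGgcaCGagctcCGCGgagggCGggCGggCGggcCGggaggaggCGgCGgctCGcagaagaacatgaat
Jmjd1c (chr10:67126838-67127137, plus strand): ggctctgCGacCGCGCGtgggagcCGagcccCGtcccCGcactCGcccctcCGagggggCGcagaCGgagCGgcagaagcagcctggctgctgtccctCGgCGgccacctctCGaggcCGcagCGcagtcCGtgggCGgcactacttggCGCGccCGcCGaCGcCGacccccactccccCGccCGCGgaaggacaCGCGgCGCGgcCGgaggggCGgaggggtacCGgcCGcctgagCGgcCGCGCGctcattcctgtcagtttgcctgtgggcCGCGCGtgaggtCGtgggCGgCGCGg
Cybb (chrX:9469275-9469574, minus strand): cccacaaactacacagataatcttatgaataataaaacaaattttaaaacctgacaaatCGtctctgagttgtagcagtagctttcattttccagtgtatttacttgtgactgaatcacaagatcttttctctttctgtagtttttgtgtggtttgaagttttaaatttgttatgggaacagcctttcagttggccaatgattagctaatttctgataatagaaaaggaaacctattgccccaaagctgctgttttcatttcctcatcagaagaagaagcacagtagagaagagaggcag

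The Tank window held 18 CG, the Tyro3 window 31, the Jmjd1c window 47 and the Cybb window 1. Site folds in replicates 1 and 2 were 14.8 and 9.82 at Tank, 10.2 and 5.08 at Tyro3, and 16.4 and 5.02 at Jmjd1c. These 4 windows were picked after their values were seen, from genes of the lists described further on.

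A second set of windows held a forkhead word, TGTTTAC or its reverse complement, the kind of sequence that forkhead proteins read. It is shown because Foxp3 is itself a forkhead protein. The word was in 19 of 1085 internal-start windows with a site (1.75%). It was in 4.03% of those without and in 3.67% of all start windows. Windows with and without a site also differed in GC content, at medians of 65.3 and 50.3%. The stretches below, from the same RefSeq table, have the word in capitals and were picked after their values were seen.
Rcc1l (chr5:134176818-134176878, minus strand): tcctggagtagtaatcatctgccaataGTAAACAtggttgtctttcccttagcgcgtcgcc
Adipor2 (chr6:119388873-119388933, minus strand): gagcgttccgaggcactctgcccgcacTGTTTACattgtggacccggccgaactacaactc
Prdm1 (chr10:44458946-44458998, minus strand): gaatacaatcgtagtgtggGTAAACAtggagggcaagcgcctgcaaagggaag

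Rcc1l, a mitochondrial relative of RCC1, had fold enrichments of 20.2 and 8.34 at its site. Adipor2, a receptor for adiponectin, had 14.8 and 8.29. Prdm1, which encodes the repressor Blimp-1, had 14.3 and 6.32. A match describes the letters and is not evidence that the factor bound them. In these 3 cases the replicate 2 peak ended before the printed stretch began on the chromosome.

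Gene-body sites were weaker than shared sites at gene ends and close to those between genes. Fold enrichment is the fragment pileup at the summit over a background estimated in the same library, as the authors' peak caller gave it. In replicate 1 the median fold was 7.58 in gene bodies (quartiles 5.19 and 11.2), 11.8 at gene ends and 8.35 between genes. In replicate 2 these medians were 4.32 (quartiles 3.66 and 5.23), 5.59 and 4.52. The gene-body median was thus 0.645 of the gene-end median in replicate 1 and 0.772 in replicate 2, and 0.908 and 0.957 of the median between genes. The quartile ranges overlapped in each replicate.

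**Figure D1:**
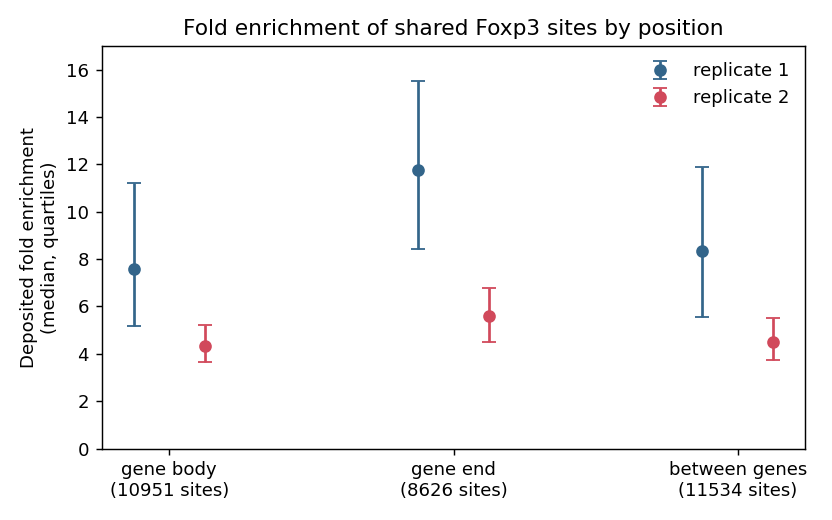
Deposited fold enrichment (vertical axis, ratio) of shared sites in gene bodies, at gene ends and between genes, for replicate 1 (blue) and replicate 2 (red). Points are medians and bars run from the lower to the upper quartile. The gene-body medians of 7.58 and 4.32 lie below the gene-end medians of 11.8 and 5.59 in both replicates.

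Gene-body sites were also narrower and lower in pileup than those at gene ends. Gene-body sites had a median length of 285 bp in replicate 1 and 265 bp in replicate 2, against 556 and 525 bp at gene ends. Their median summit pileup was 41 and 25 fragments, against 71 and 35. The summits of the replicates lay a median of 64 bp apart, and 66.1% of sites had them within 100 bp. Sharing itself was also less frequent away from gene ends. Of 38661 replicate 2 peaks in gene bodies, 28.3% were shared, against 60.1% at gene ends and 27.6% between genes. Of 250249 replicate 1 peaks in gene bodies, 4.38% were shared, against 26.0% and 4.24%.

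Across the 10951 gene-body sites the folds of the replicates had a Spearman correlation of 0.44, given as a description over sites that share their libraries. Fold was higher in replicate 1 at 9585 of them (87.5%), with a median ratio of 1.72. At the limits of the rule, the nearest site to a gene end lay 1003 bp away, both in Erf and in Foxq1, with folds of 7.26 and 3.04 and of 18.8 and 5.56, and the next lay 1005 bp away in Gm4884 (7.93 and 3.53). Just outside were sites 999, 998 and 997 bp from an end of Nkx2-4 (12.6 and 7.49), Setd4 (10.7 and 5.76) and Slc22a29 (9.79 and 8.44). Members that overlapped by exactly 50% included those in Phc2, Taf4 and Fam20a. Pairs in Pcdh8, Pex26 and Trub1, which overlapped by 49.9%, were left out.

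**Figure D2:**
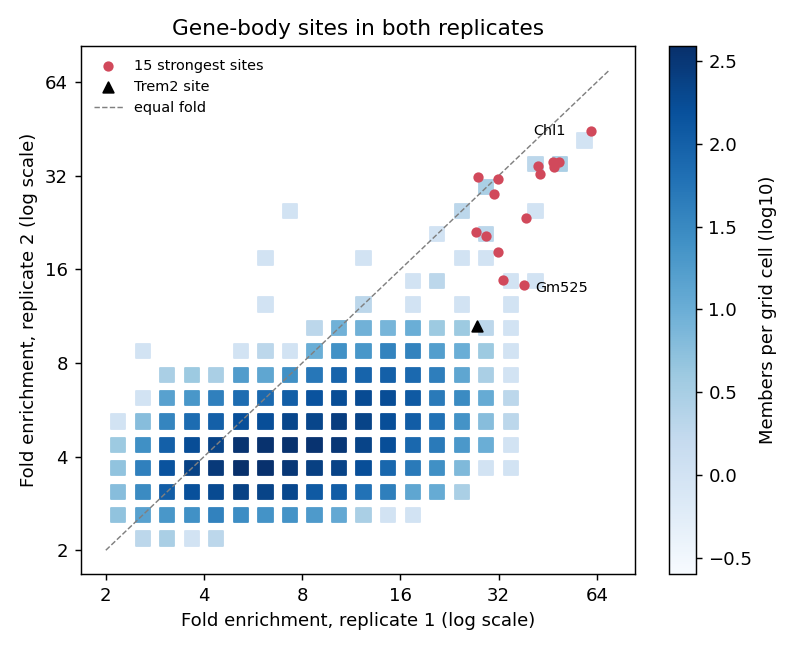
Fold enrichment of gene-body sites in replicate 1 (horizontal) and replicate 2 (vertical), both on log scales. Squares give the number of sites per grid cell on a log10 colour scale, red points the 15 strongest sites, the triangle the Trem2 site and the dashed line equal folds. Of all sites 87.5% lie below the line, as do 14 of the 15 strongest.

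The 15 strongest gene-body sites lay in genes of varied roles. They were chosen by the mean percentile of fold within each list, so their high folds describe the choice, and some other sites reached like folds in a single replicate. The highest was in Chl1, a neural cell adhesion gene, at chr6:103649049-103649295 in replicate 2, with folds of 61.6 and 44.5 and pileups of 4909 and 11983 fragments. Gphn, which encodes the inhibitory synapse scaffold gephyrin, had folds of 47.1 and 35.4, and Jarid2, a partner of the Polycomb complex PRC2, had 48.9 and 35.3. A site inside both Cmss1 and Filip1l had 47.3 and 34.2, with pileups of 2983 and 2844. Zc3h7a, a zinc finger gene, had 42.2 and 34.3, with pileups of 2884 and 2665. Cdk8, the kinase of the Mediator complex, had 30.9 and 27.9, with pileups of 1846 and 1763.

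The other strongest sites were in Kctd16 (42.7 and 32.4), Aida (31.9 and 31.3), Camk1d (27.7 and 31.6), Dlgap2 (31.8 and 18.2), Gm525 (38.3 and 14.3), Peak1 (29.2 and 20.5), Rps6kc1 (33.0 and 14.8) and Apool (27.3 and 21.1). E030030I06Rik had 39.0 and 23.4 and is named as uncertain because its sequence may have near copies. The median ratio of replicate 1 to replicate 2 fold was 1.38 among these 15 sites, against 1.72 among all. Pileups of at least 1000 fragments were found at 8 gene-body sites in replicate 1 and at 5 in replicate 2, against medians of 41 and 25. Repeats were not screened and no IgG values stand beside these sites, so their dependence on the antibody was not tested. Without shared sites of such pileup there were 10943 gene-body sites, and the ratios to the gene-end medians were again 0.645 and 0.772.

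Trem2, the microglial and macrophage receptor for lipids and debris, held one of the stronger sites and was chosen after its values were seen. The replicate 2 peak was at chr17:48348456-48348784, with its summit 2197 bp inside a gene of 5.88 kb. Its folds were 27.4 and 10.6 (mean 18.96 ± 11.9, SD, n = 2), with pileups of 688 and 99 fragments. The pileup was far higher in replicate 1 than in replicate 2. Trem2 is in the macrophage identity list given below, where 9 of 28 genes held a site. That is 32.1%, against 35.1% among all genes of the same length classes.

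Gene-body sites thinned out with distance from gene ends. Per Mb of gene body there were 33.0 sites at 1 to 2 kb from the nearest end, 16.97 at 2 to 5 kb, 13.7 at 5 to 10 kb, 9.77 at 20 to 50 kb and 5.03 beyond 200 kb. The mean over all gene bodies was 11.1 per Mb, and gene bodies made up 37.5% of the sequence. Folds did not fall with distance in the same way. The median was 8.76 and 4.54 at 1 to 2 kb, 7.14 and 4.21 at 10 to 20 kb, and 8.95 and 4.53 beyond 200 kb. Density at 1 to 5 kb was 3.18 times that at 50 kb and more.

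The start of a gene and its other end differed close by. The strand was known for the hosts of 8609 sites. At 1 to 2 kb from the outermost start there were 41.5 sites per Mb with median folds of 9.71 and 4.95. At the same distance from the other end there were 25.1 per Mb with 7.44 and 4.20. At 2 to 3 kb the densities were close, at 20.7 from the start and 21.8 from the other end. At 3 to 5 kb the order was turned, at 14.95 against 18.7 per Mb, and at 5 to 10 kb it was 15.1 against 16.3. At 20 to 50 kb both were 11.9. Along genes of at least 20 kb the sites were spread nearly evenly, with 21.2, 19.1, 18.5, 19.5 and 21.7% of 7462 sites in 5 equal parts from start to end.

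**Figure D3:**
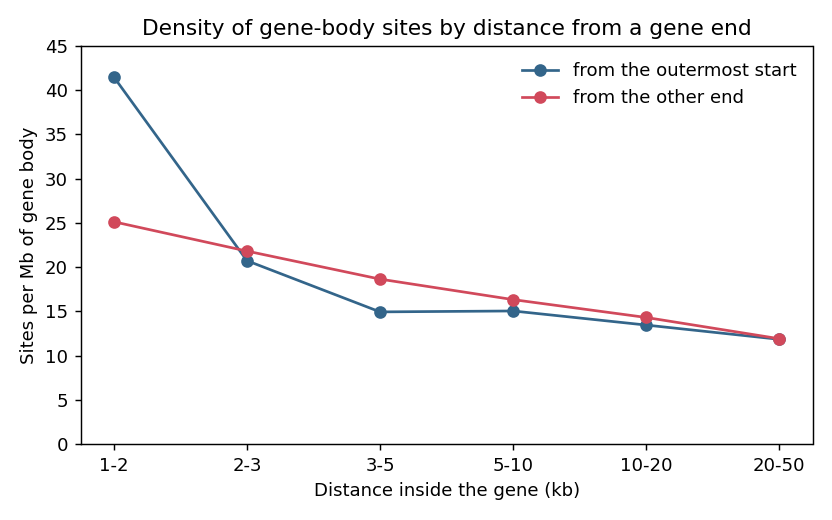
Gene-body sites per Mb of gene body (vertical axis) by distance in kb from the outermost start (blue) or from the other end (red) of the host gene. Points are counts over the sequence available at each distance, with no replicate error. The start lies higher at 1 to 2 kb (41.5 against 25.1 per Mb) and lower at 3 to 5 kb (14.95 against 18.7), and the lines meet at 20 to 50 kb.

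Chromosome X held few of these sites. It had 247, or 5.65 per Mb of gene body, against 11.4 on the autosomes together, which ranged from 7.80 on chromosome 3 to 15.8 on chromosome 7. Shared sites of all positions counted together were also sparser on X, at 7.79 per Mb of chromosome against 12.1. Gene bodies made up 25.6% of X and held 18.6% of its shared sites. The median folds of the X sites were 10.3 and 4.91, above the 7.51 and 4.32 of autosomal sites.

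Annotated starts inside gene bodies were a place where gene-body sites gathered. RefSeq lists 6671 start windows inside gene bodies, of protein-coding transcripts or long noncoding RNAs. Starts on chromosome 18 were not analysed here. The replicate 2 peak of a gene-body site overlapped 1085 of them, which is 16.3%. The replicate 1 peak of the same site also did so at 1022 of these (94.2%), and the replicate 2 summit lay inside the window at 452 (41.7%). The share was 23.4% for starts of protein-coding genes (908 of 3881) and 6.34% for long noncoding RNAs (177 of 2790). These windows were touched by 891 sites, or 8.14% of all gene-body sites (7.63 to 8.66%), those of chromosome 18 included in the total. Starts more than 4 kb from a gene end had 208 site summits per Mb within 200 bp, against 15.3 per Mb at 2 to 3 kb, a ratio of 13.6. For all replicate 2 peaks that ratio was 7.10, and for all replicate 1 peaks it was 2.52.

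Sites at internal starts were stronger and wider than the other gene-body sites. Their median folds were 11.6 and 5.64, against 7.28 and 4.24 for the other 10060 gene-body sites and 11.8 and 5.59 for shared sites at gene ends. Their median lengths were 561 and 553 bp, against 270 and 255 bp. A wider peak reaches a window more easily, so the choice by overlap itself favours width. The other sites include the 350 of chromosome 18, whose starts were not analysed. The gene table gives the outermost ends of all transcripts of a gene, so an internal start can be the one in main use. Of 771 protein-coding genes with a site at an internal start, 248 (32.2%) also had an annotated window within 1 kb of the outermost start. A shared site lay within 1 kb of the outermost start in 218 of them (28.3%), against 725 of 2158 genes (33.6%) whose internal starts had no site. Whether the outermost or the internal start was active in these cells was not measured.

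**Figure D4:**
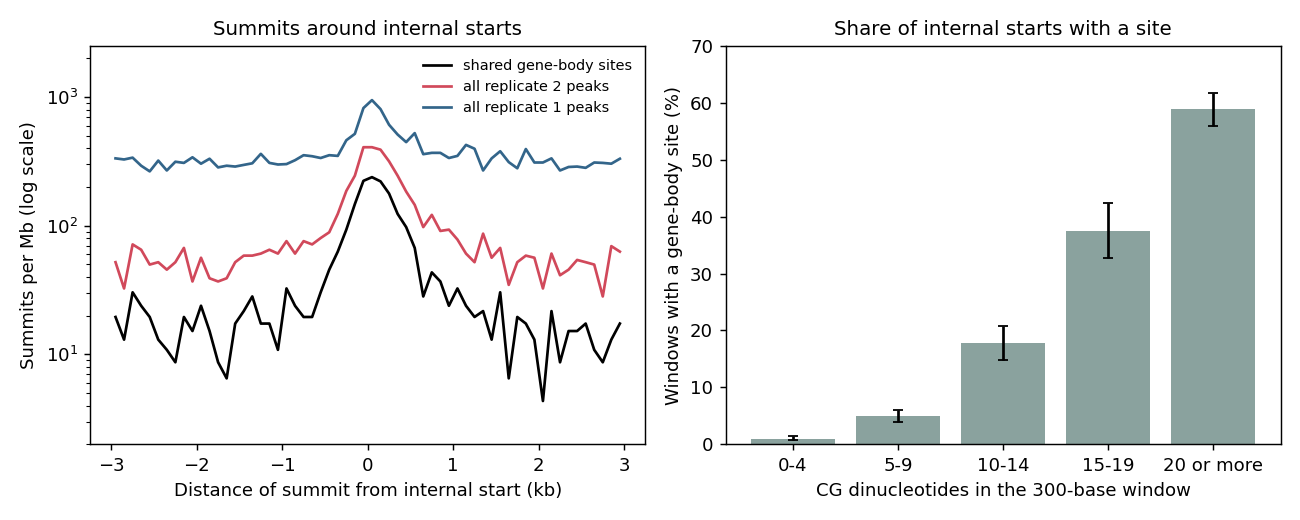
Left, summits per Mb (log scale) by distance in kb from 4611 internal starts, for shared gene-body sites (black), all replicate 2 peaks (red) and all replicate 1 peaks (blue). Right, the share of internal-start windows with a gene-body site by their number of CG dinucleotides, with 95% exact binomial intervals, rising from 1.01% to 58.8%.

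The share of windows with a site rose with their CG content. Windows with a site had a median of 24 CG and a GC content of 65.3%, and those without had 5 CG and 50.3%. With 0 to 4 CG, 1.01% of windows had a site (27 of 2684). The share was 4.92% with 5 to 9 CG, 17.7% with 10 to 14, 37.5% with 15 to 19 and 58.8% with 20 or more (705 of 1198). Median folds were 6.77 and 4.12 in the lowest class and 12.2 and 5.98 in the highest. All classes share both libraries.

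Short words for known factors were then counted on both strands of the same windows. The forkhead word TGTTTAC was in 1.75% of windows with a site, 4.03% of those without and 3.67% of all 32585 start windows. The AP-1 word TGANTCA was in 4.52, 8.88 and 7.85% of these windows, and the word GAGGAAGT, read by PU.1, the master factor of macrophages, in 2.67, 2.86 and 3.22%. Words of general promoter factors were more frequent where sites lay. CCCCGCCC, read by SP and KLF proteins, was in 34.9% with a site and 9.27% without, against 17.7% of all. GCGCATGC, read by NRF1, was in 4.79, 1.11 and 2.71%, and CCGGAAGT, read by ETS proteins, in 5.44, 1.59 and 3.92%. TGACGTCA (CREB and ATF proteins) was in 2.12, 0.913 and 1.80%, and AAGATGGC (YY1) in 3.23, 1.93 and 2.75%. The ETS and PU.1 words end in the same letters, GGAAGT, and differ at their start.

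The SP and KLF, NRF1 and ETS words differed less among windows of like CG content. With 15 or more CG, the SP and KLF word was in 38.9% of 857 windows with a site (35.6 to 42.2%) and in 33.4% of 746 without (30.0 to 36.9%). The NRF1 word was in 5.02 and 4.29%, and the ETS word in 6.65 and 5.23%. The AP-1 word was in 3.85% (2.67 to 5.37%) and 3.08% (1.96 to 4.59%). That order is opposite to the AP-1 order in all internal windows, but these 2 intervals overlap. The YY1 word was in 3.73 and 2.28%, the CREB and ATF word in 2.33 and 2.01%, and the PU.1 word in 1.87 and 3.08%. The forkhead word was in 12 of the windows with a site (interval 0.726 to 2.43%) and 21 of those without (2.82%, 1.75 to 4.27%). These windows still differed in GC content, at medians of 67.7 and 64.3%. Other gene-body sites could not be searched, since no genome sequence of this build was used.

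The strongest sites at internal starts were in genes of varied roles. Zpbp, a sperm protein gene, had folds of 23.9 and 10.4, with 7 CG in its window, which both peaks touched only at their edge. Dnajc25, a chaperone gene, had 23.6 and 9.84, and the splicing factor gene Srsf11 had 20.8 and 9.79. Filip1l had 22.4 and 9.23 at its own start, inside the longer gene Cmss1. These were ranked as the strongest sites above, and were named after their values were seen.

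In all, 6215 of the 21627 protein-coding genes held at least 1 gene-body site, which is 28.7% (28.1 to 29.3%). This share is the background for the gene lists below. Of the hosts, 3827 held 1 site, 2045 held 2 to 4 and 343 held 5 or more, up to 22. Long genes were hosts more often. The median length was 51.2 kb with a site and 11.1 kb without. The share with a site was 6.27% among genes of 2 to 5 kb, 33.99% at 20 to 50 kb, 70.2% at 100 to 200 kb and 99.6% above 500 kb. Another 2441 genes of 2 kb or less had no room for one. Genes of at least 100 kb held 46.6% of the sites. The share of gene-body sequence in such genes was not computed, so the 46.6% shows neither an excess nor a lack of sites there. Sites per gene rose less than length did. The mean was 0.471 at 20 to 50 kb (median length 30.3 kb) and 4.85 above 500 kb (median length 735 kb).

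The genes with the most sites were all long. Camta1, a calmodulin-binding transcription activator of 802 kb, held 22, with replicate 1 folds of 4.19 to 20.4 and replicate 2 folds of 2.75 to 6.99. Sdk1, an adhesion gene of 974 kb, held 20, and Wwox, an oxidoreductase gene in a known fragile site, held 18. Arid1b, a subunit of the BAF chromatin remodelling complex, held 16 in 353 kb, and Nav2, a neuron navigator, also 16. Rbfox3 held 14, Cntnap2 13 and Gse1 13. Zfp978 held 15 and belongs to a zinc finger family with near copies, so its count is uncertain. Gm37013, Gm38666 and Gm38667 held 22, 22 and 20, but all 3 overlap on the clustered protocadherin locus and share most of these sites.

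Per 100 kb of gene, the densest hosts of 5 or more sites were shorter. Sfi1, a centrosome gene, had 16.8 sites per 100 kb, Ahnak2 16.4, Kif26a 13.2, C130026I21Rik 12.02, Sptbn4 10.95, Notch3 10.9, 4930467E23Rik 10.1 and Disp3 9.66. Sfi1, C130026I21Rik and 4930467E23Rik may have near copies in the mouse genome and are uncertain. Ahnak2 sites were weak, with folds of at most 3.64 and 3.24. Notch3, a receptor of the Notch pathway, had 5 sites in 46.1 kb with folds up to 16.5 and 6.76.

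Some genes held runs of neighbouring sites. Another gene-body site lay within 10 kb for 2532 sites (23.1%) and within 1 kb for 268 (2.45%), and the median distance to the nearest was 30.9 kb. The mean density was 11.1 sites per Mb of gene body. Whether neighbours were more frequent than random placement at that density would give was not tested. The runs with the most sites, with steps of at most 10 kb, held 7 sites over 31.8 kb in Sptbn4, a spectrin gene, and 6 over 10.8 kb in Sfi1. Runs of 5 sites lay in Lingo1 (15.7 kb), across Ehd2 and Bicra (25.8 kb) and in Kif26a (27.9 kb). The Sfi1 run had median pileups of 210.5 and 137.5 fragments, against 43 and 29 in Sptbn4.

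Gene lists were read against 28.7% and against the share among all genes of the same length classes. No list was tested. Of the engulfment and LC3-associated phagocytosis genes, 19 of 32 held a site (59.4%, 40.6 to 76.3%), beside 49.6% for their lengths. Dock1, the exchange factor that acts with ELMO in engulfment, held 6, with folds from 3.17 to 5.48 in replicate 1. Uvrag, a partner of Beclin 1, held 4, of which the strongest had 19.4 and 5.31. Axl and Tyro3, receptors for dying cells, held 3 and 2. The strongest Axl site had 10.1 and 6.14. Rubcn, which encodes Rubicon, the regulator required for LC3-associated phagocytosis, held no shared gene-body site. Single lists did have peaks in Rubcn, 18 in replicate 1 and 5 in replicate 2.

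Of the macrophage identity genes, 9 of 28 held a site (32.1%, against 35.1% for their lengths). Runx1, a regulator of blood formation, held 6, and the strongest had folds of 18.6 and 5.27 and lay 4.32 kb from a gene end. Adgre1, which encodes F4/80, held 2, at 14.3 and 4.12 and at 10.3 and 5.89. Etv6 held 2, and Trem2 held the site described above. Csf1r, Itgam, Mertk, Spi1, Irf8, Lyz2 and Tyrobp held none. Among 35 inflammatory genes 9 held a site (25.7%, against 26.4%). Relb, an NF-κB subunit, held 2, of which 1 had 15.1 and 5.38, and Irak2 and Nos2 held 2 each, with folds of at most 5.40 and 4.40. Tank held the site shown above. Of 30 lysosome genes, 4 held a site (13.3%, 3.76 to 30.7%), against 31.0% for their lengths. Among them were Tfeb with 2, and Psap and Tfe3 with 1 each. Tfeb and Tfe3 are transcription factors of lysosome biogenesis.

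Of the genes of the regulatory T cell Foxp3 programme, 13 of 31 held a site (41.9%, against 41.8% for their lengths). Nfatc2 and Nfatc1, whose proteins partner Foxp3 in T cells, held 5 and 4. The strongest Nfatc2 site, at 10.6 and 5.27, lay at an internal start with 20 CG. Ikzf4 held 2, the strongest at 14.3 and 5.80, Satb1 held 1 at 18.5 and 7.48, whose replicate 2 peak alone reached an internal-start window with its edge, and Il2ra held 1 at 9.52 and 3.93. Ctla4, Ikzf2, Icos and Tnfrsf18 held none. The Foxp3 gene itself held none, with 6 peaks in replicate 1 and 0 in replicate 2. Of markers of other cells, 7 of 20 T cell genes (35.0%, against 39.3%) and 3 of 20 B cell and neutrophil genes (against 25.1%) held a site. Bcl11b held 4, Cd4 2, Trat1 1, Pax5 3, Ebf1 1 and Bank1 1.

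The lists of long genes had the highest shares, as did other genes of their length. Chromatin regulators had 27 of 40 (67.5%, against 63.1%), with 16 in Arid1b and 5 in Baz2b, among others. They held 14.6 sites per Mb of gene, against 10.6 for all genes, which was not matched for length. Arid1b alone held 16 of their 77 sites. Inflammatory genes held 13.3 per Mb, regulatory T cell programme genes 11.6 and engulfment genes 10.8, and the other lists shown were below 10.6. These densities were not matched for length either, and sites per gene rose less than length did. All 35 long neuronal genes held a site, against 99.6%, but at 3.88 per Mb, with 13 in Cntnap2, 10 in Magi2 and 10 in Rbfox1. Across the lists, 23 of 106 windows at annotated internal starts were overlapped by a site in replicate 2 (21.7%), in 19 of 76 genes. The share was 16.3% over all internal-start windows and 23.4% over those of protein-coding genes.

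**Figure D5:**
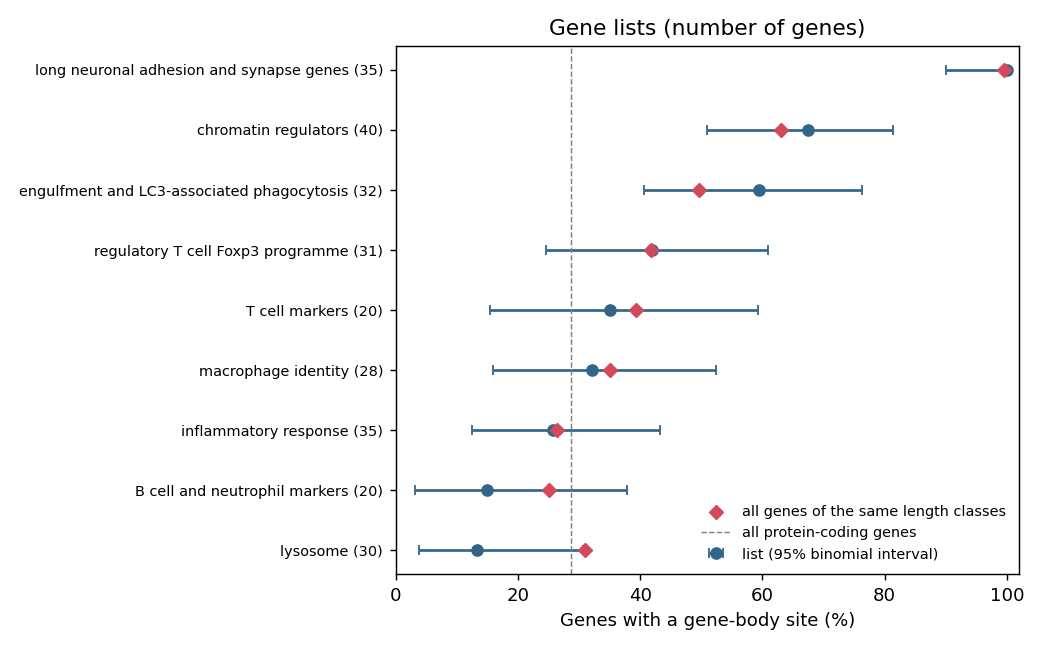
Share of genes with a gene-body site (horizontal axis, %) in each list shown (points, 95% exact binomial intervals), among all genes of the same length classes (diamonds) and among all protein-coding genes (dashed line, 28.7%). The lysosome list has an upper bound of 30.7% and its diamond at 31.0%, and the other diamonds lie inside their intervals. Genes are not replicates and no list was tested, so a diamond outside an interval decides nothing about its list.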

How the data were processed

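Peak lists of the 2 Foxp3 libraries were used. The submitters' processing notes list CASAVA 1.4 and build mm10, and no source used here gives the aligner. The authors, per the file headers, called peaks with MACS 2.1.1.20160309 on each library alone at a q-value cutoff of 0.01, without a control library and keeping duplicates, so amplified fragments and antibody-independent sites can be listed. The deposited pileup is a signal, the fragments over the summit, with no depth scaling. Fold enrichment, also as deposited, is a ratio to a background of the same library, and the deposited significance is −log10 of a p-value and of a q-value. The lowest pileup listed was 10 fragments in replicate 1 and 13 in replicate 2.

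Peaks were paired, classed by position and counted in Python 3.11.15 (pandas 2.3.3, scipy 1.17.1), with genes from RefSeq (GRCm38.p6) and the strand of 17273 of 21627 genes from its start windows. The counting was checked on simulated data. Where a site lay inside several genes, the longest was taken for its length. The alternatives tried were overlap, distance, stricter peaks, equal numbers of peaks, very high pileups, all gene types and each replicate alone, and leaving out sites at internal starts was added after seeing the data. All 301 entries of the 10 gene lists were matched. The results of 1 list and of some single genes are not reported here. The members, lists and rules for named genes were chosen with earlier results of these data known. The rules named the 12 genes with most sites, the 15 strongest sites, the 8 densest genes of at least 5 sites, the 3 genes with most sites in each list, the sites at the limits of the rule, the 5 runs with most sites, and Rubcn and Foxp3.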

Additional observations from a re-analysis of the deposited data

How the results depend on the processing

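The count of 10951 gene-body sites became 19322 with a 1 bp overlap, 2782 with 80% reciprocal overlap, 3323 with a −log10 q of at least 10 and 5122 with the strongest replicate 1 peaks in equal number. Each list alone gave 38661 and 250249. In the same order of settings (1 bp, 80%, −log10 q of at least 10, equal number), the share of shared sites in gene bodies, 35.2%, became 37.96, 30.5, 25.9 and 28.5%. It was 25.98% beyond 5000 bp, 32.6% with a −log10 q of at least 5, 33.3% away from the ends of all genes, 33.3% without sites at internal starts, and 40.8 to 45.05% for a list alone. The share of genes with a site, 28.7%, became 38.7, 10.6, 12.6 and 17.5%, then 20.1, 24.1, 27.6 and 26.6%, and 52.0 to 77.9% for a list alone. The density ratio of 3.18 became 2.90 at 80% overlap, 3.67 and 4.76 with the q cutoffs of 5 and 10, 2.76 without internal starts, and 1.58 to 2.30 for a list alone. Beyond 5000 bp that ratio has no near sites and no value. The fold ratio of gene-body to gene-end sites, 0.645 in replicate 1, became 0.846 with a −log10 q of at least 10, 0.874 in equal number and 0.782 in replicate 1 alone, and the 0.772 of replicate 2 became 0.922 with a −log10 q of at least 10. The share in genes of at least 100 kb, 46.6%, became 50.3% at 80% overlap, 56.95% beyond 5000 bp, 45.3 and 44.4% with the q cutoffs, 48.6% in equal number, 48.2% without internal starts and 49.8 to 54.1% for a list alone. The share with a neighbour within 10 kb, 23.1%, became 39.5, 5.90, 6.26 and 7.46% in the first order, 21.3% beyond 5000 bp, 17.03% with a −log10 q of at least 5, 22.3% without internal starts, and 57.8 to 97.2% for a list alone. Gene-body sites stayed weaker than gene-end sites under every setting that gave a ratio. No paired analysis was possible because the libraries form a single group. Sites with pileups under 10 fragments in replicate 1 or 13 in replicate 2 could not be seen.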

Other observations

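Ends of genes that are not protein-coding also lay near some gene-body sites. Within 1 kb of an end of a long noncoding RNA gene there were 406 sites, or 3.71% of the members, on 1.27% of gene-body sequence. The density there was 32.3 per Mb, against 11.1 over all gene bodies, with median folds of 9.53 and 4.60. Near pseudogenes it was 18.9 per Mb (116 sites). Near any such gene there were 593 sites, or 5.42% of the members on 2.18% of the sequence.

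Within 1 kb of an end of a miRNA gene there were 36 sites, or 0.329% of the members on 0.134% of gene-body sequence, a density of 27.2 per Mb against 11.1 over all gene bodies. Mir34b, whose family is induced by p53, was overlapped by a site inside Hoatz and Btg4 with folds of 13.3 and 6.39. Mir499, a miRNA of the myosin gene Myh7b, was overlapped by a site with folds of 5.999 and 4.20. These were named after their values were seen. Their mature 5p sequences from RefSeq, with the seed in capitals, share no seed.
mmu-miR-34b-5p: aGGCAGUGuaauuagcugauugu
mmu-miR-499-5p: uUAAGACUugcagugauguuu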
